A study of Homo sapiens with 6 samples.

Results

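The DDX and DHX genes encode RNA helicases, enzymes that use ATP to unwind RNA duplexes or to strip proteins from RNA. The names come from the amino acids of a conserved motif, DEAD in most DDX proteins and DEAH in most DHX proteins. Together these helicases act in every step of the life of an RNA: assembly of ribosomes in the nucleolus, removal of introns by the spliceosome, export of mRNA, translation, decay, and detection of viral RNA in the cytoplasm. Members were taken from the deposited table by symbol, as DDX followed by a number with or without a final A, B or X, or DHX followed by a number, leaving out descriptions with the word pseudogene. Of 60605 listed genes 53 met this rule and 0 were dropped as pseudogenes. The rule itself used no expression value, but the family was proposed with earlier results of the treated against control contrast known. Fold changes and calls of the members are therefore given as a description of these 6 libraries.

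RNA was sequenced from Huh-7 cells, a human hepatoma line, made high in lipid with 100 µM oleic acid for 24 h. After starvation, 3 control libraries came from cells given DMSO (0 µM pectolinarigenin) and 3 treated libraries from cells given 100 µM pectolinarigenin, a plant flavone, for 24 h. Both groups carried the oleic acid load, so effects of the lipid itself are not compared here. Nothing in the labels tells whether the libraries of 1 group were grown as independent cultures. The p-values therefore reflect the scatter among these 6 libraries alone, and that scatter may be technical.

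Total counts ranged from 15140022 to 20311261 per library. All 8 hepatocyte and hepatoma markers were present, with a summed level of 12370 to 12565 FPKM in controls and 9018 to 9817 FPKM in treated libraries (FPKM is the count scaled to gene length and to library size). Markers of other cell types summed to 42.3 to 42.9 FPKM in controls and 54.4 to 78.0 FPKM in treated libraries, nearly all of it LYZ (39.3 to 76.5 FPKM over the 6 libraries). Of the others, PECAM1 lay between 1.15 and 2.61 FPKM, the leukocyte marker PTPRC had at most 2 counts and the fibroblast marker COL3A1 at most 3 counts in any library. The part of these shifts in the results below was not tested. In bulk RNA, less of a transcript per cell and fewer cells that make it cannot be told apart.

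More helicase genes were higher than lower after pectolinarigenin, by modest amounts. Of the 53 members 46 had a mean of at least 1 FPKM and were tested with edgeR's quasi-likelihood test over all 12829 genes above that minimum. Of these 46, 28 were higher and 8 lower at an adjusted p under 0.05, and 10 did not pass. Over all tested genes 50.6% passed, 25.3% higher and 25.3% lower. The groups did not overlap in FPKM in 37 of the 46 members, against 58.9% of all tested genes: 29 were higher in all treated libraries (33.5% of all tested genes) and 8 lower (25.4%). The median log2 fold change was 0.23 for the tested members and 0.00071 for all tested genes. DDX39A was the only tested member to change at least 2-fold. The summed level of all 53 members, tested or not, was 663, 658 and 658 FPKM in the control libraries and 754, 718 and 762 FPKM in the treated ones, with no overlap.

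**Figure D1:**
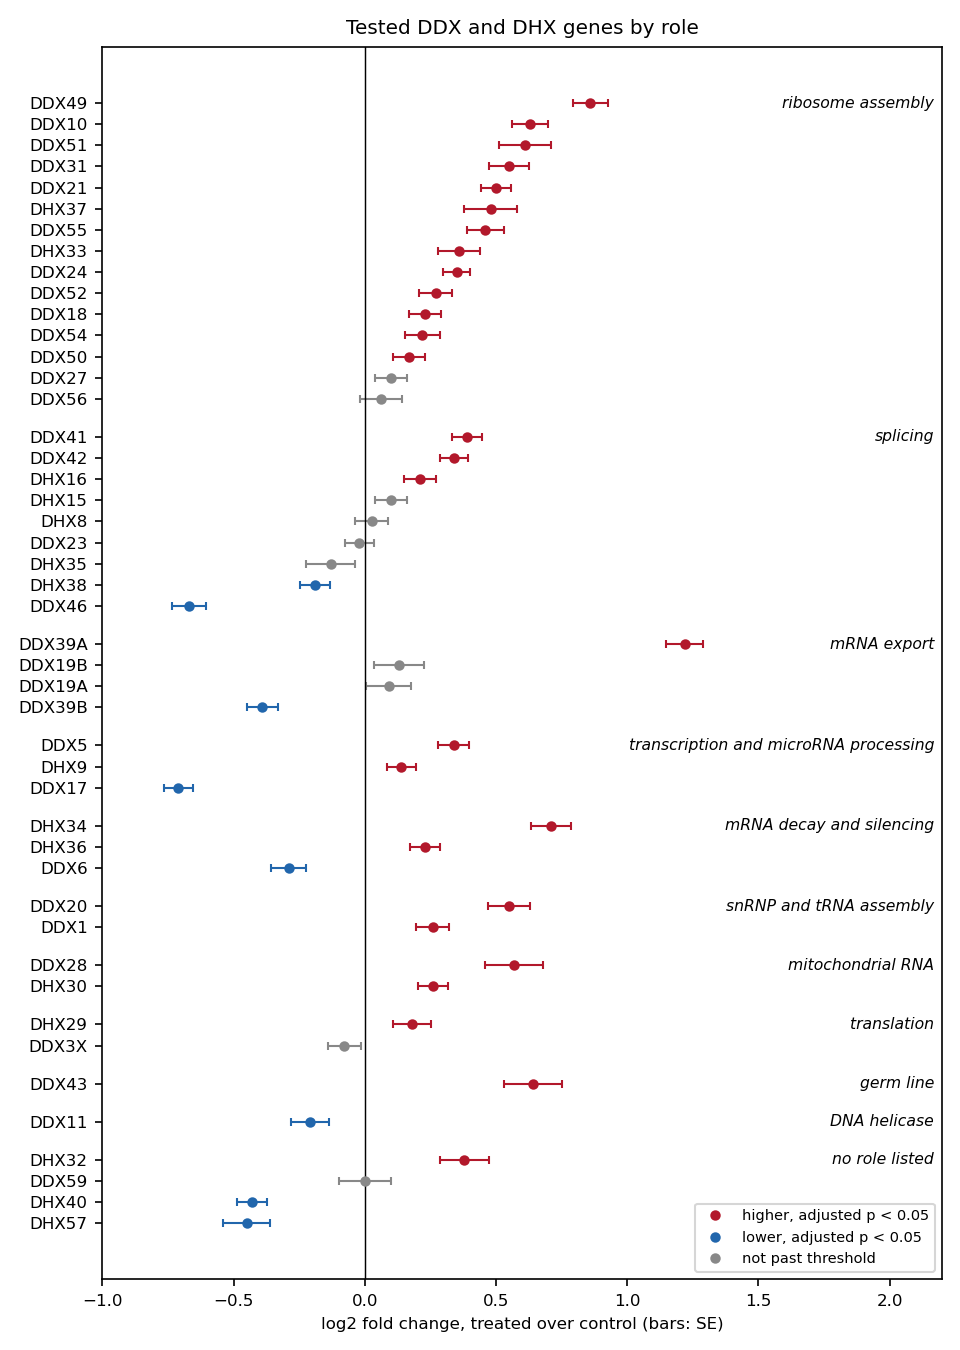
Log2 fold change (treated over control, x axis) of the 46 tested DDX and DHX genes, grouped by role, with bars for the standard error. The 15 ribosome assembly genes all lie to the right of 0, while the 9 splicing genes run from -0.67 to 0.39.

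Helicases of ribosome assembly work mainly in the nucleolus, where they remodel the precursor of ribosomal RNA and release small nucleolar RNAs from it. Of 16 listed, 15 were tested, 13 were higher, 0 were lower and 2 did not pass. Thus 86.7% were higher and 0% lower, against 25.3% higher and 25.3% lower of all tested genes. Their median log2 fold change was 0.36, with a range from 0.063 to 0.86. DDX49, which takes part in pre-rRNA processing, had the largest change in this role. Its level was 11.29, 11.72 and 12.01 FPKM in the controls and 20.95, 20.97 and 23.11 FPKM in the treated libraries, so the groups stood far apart. The fitted change was 1.81-fold (log2 fold change 0.86, SE 0.067, edgeR adjusted p = 1.39e-07). DDX21, a nucleolar helicase that binds ribosomal RNA, had the highest level of the role. It measured 49.38, 45.96 and 46.63 FPKM in controls and 71.29, 65.04 and 69.15 FPKM after treatment, a 1.41-fold rise (SE 0.058 on the log2 scale, adjusted p = 6.69e-06, edgeR) in which every treated library exceeded every control.

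Other members of the role rose by smaller factors than DDX49. DDX10, a factor of small subunit assembly, was at 4.39, 4.15 and 4.48 FPKM in controls and 6.51, 6.92 and 7.23 FPKM after treatment, 1.55-fold higher. DDX51, which acts in maturation of the large subunit RNA, rose 1.53-fold from a mean of 1.80 ± 0.139 to 2.83 ± 0.152 FPKM (SD, n = 3 each). DDX31 rose by 0.55 on the log2 scale, DHX37, a component of the small subunit processome, by 0.48 and DDX55 by 0.46. DHX33 (0.36), DDX24 (0.35), DDX52 (0.27), DDX18 (0.23), DDX54 (0.22) and DDX50 (0.17) had smaller log2 fold changes that passed. DDX27, with a log2 fold change of 0.10 (adjusted p = 0.180, edgeR), and DDX56, with 0.063 (adjusted p = 0.532), did not pass. The treated values of DDX27, 11.14, 10.63 and 11.28 FPKM, nevertheless lay above its control values of 9.70, 10.18 and 10.17 FPKM. In DDX56, treated library 2 (10.08 FPKM) lay below all controls (10.26 to 10.92 FPKM).

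DDX47, the ribosome assembly member that was not tested, had a mean of 0.72 FPKM. Its counts were 69, 32 and 50 in the controls and 84, 71 and 70 in the treated libraries, 0.34 to 0.74 FPKM against 0.68 to 1.04 FPKM, which overlapped. In a fit without the expression minimum its log2 fold change was 0.56 (SE 0.19, edgeR adjusted p = 0.0163). In GENCODE 29, 36.5% of its exon length is shared with APOLD1 on the same strand, and the part of that overlap in its low count was not tested.

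The libraries of the treated group differed in how far this role moved. The median over the 15 genes of the log2 CPM (counts scaled to library size with TMM factors) above each gene's control mean was 0.46 in treated library 1, 0.23 in treated library 2 and 0.37 in treated library 3. In controls it stayed between -0.0088 and 0.0052. The summed FPKM of all 16 genes of the role, DDX47 included, gave the same grouping, 175, 175 and 173 in controls against 237, 225 and 238 after treatment. Without treated library 2 the median log2 fold change was 0.45.

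**Figure D2:**
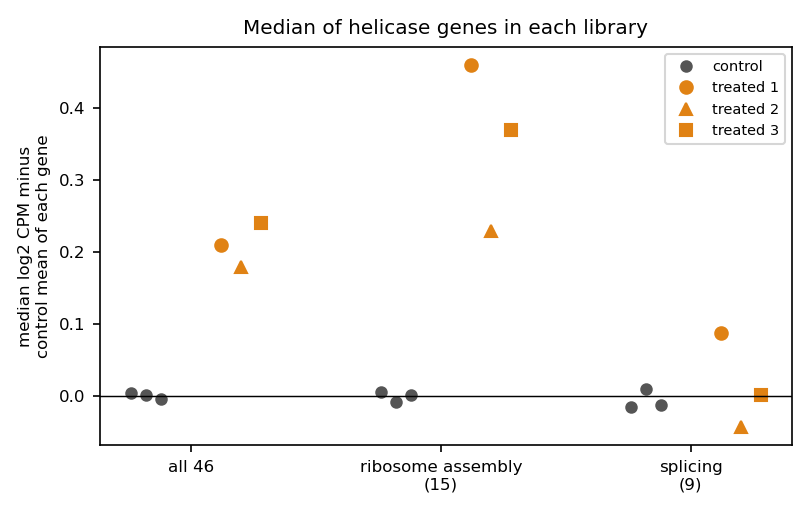
Median over helicase genes of log2 CPM minus each gene's control mean (y axis) in each library, for all 46 tested members, 15 ribosome assembly genes and 9 splicing genes. Treated libraries lie at 0.23 to 0.46 for ribosome assembly and at -0.043 to 0.088 for splicing.

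Splicing helicases drive the rearrangements of the spliceosome, each at its own step. All 9 listed were tested: 3 were higher, 2 lower and 4 did not pass, with a median log2 fold change of 0.026. The median was -0.046 without treated library 1. The share that passed, 55.6% (33.3% higher, 22.2% lower), was near that of all tested genes, 50.6% (25.3% higher, 25.3% lower). DDX46, the homologue of yeast Prp5 that helps the U2 particle settle on the branch point, had the largest change of the role. It fell from 16.08, 14.50 and 15.15 FPKM in controls to 9.98, 9.15 and 10.25 FPKM, leaving 0.626 of the control level (log2 fold change -0.67, SE 0.064, edgeR adjusted p = 8.8e-07). Every treated library lay well below every control. DHX38, the homologue of Prp16, fell less, from 17.78, 19.07 and 17.85 FPKM to 17.21, 16.48 and 15.53 FPKM (log2 fold change -0.19, adjusted p = 0.0122, edgeR). Its call was lost in limma (adjusted p = 0.0553 with a pseudocount of 1) and without control library 2 (0.0781).

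The splicing genes that rose were DDX41, DDX42 and DHX16. DDX41, found in the catalytic spliceosome and known as a gene of inherited myeloid cancer risk, went from 14.09, 14.35 and 14.44 FPKM to 19.64, 18.36 and 19.53 FPKM, 1.31-fold higher. DDX42, which binds the U2 component SF3B1, went from 16.92, 17.89 and 17.64 FPKM to 23.74, 22.16 and 22.11 FPKM, 1.26-fold higher. DHX16, the homologue of Prp2, rose by 0.21 on the log2 scale, also without overlap. DHX15, the homologue of Prp43, was the most abundant of the role. Its values of 35.13, 32.08 and 31.99 FPKM in controls and 36.24, 34.44 and 38.22 FPKM after treatment overlapped (log2 fold change 0.10, adjusted p = 0.210, edgeR). DDX23 (-0.020), DHX8 (0.026) and DHX35 (-0.13) did not pass on this scale either, and their groups overlapped.

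Export helicases release mRNA from the transcription site or at the nuclear pore, and here the close paralogs DDX39A and DDX39B moved apart. DDX39A and DDX39B (also called UAP56) load export factors on mRNA. DDX39A lies on chromosome 19 (14408819 to 14419383, GRCh38, GENCODE 29) and DDX39B on chromosome 6 (31530219 to 31542448). DDX39A was at 15.25, 15.87 and 15.23 FPKM in controls and 34.81, 35.22 and 41.00 FPKM after treatment, the largest rise of the family (2.34-fold, log2 fold change 1.22, SE 0.071, edgeR adjusted p = 6.96e-09). DDX39B was at 17.18, 15.46 and 16.32 FPKM in controls and fell to 13.37, 12.55 and 12.44 FPKM (log2 fold change -0.39, SE 0.059, adjusted p = 7.24e-05, edgeR). The ratio of DDX39A to DDX39B within a library, which does not depend on library scaling, was 0.888, 1.03 and 0.933 in controls and 2.60, 2.81 and 3.30 after treatment. Near parity in controls thus became about 3 to 1, with no overlap between the groups. The sum of the paralogs was higher too, 31.8 ± 0.582 FPKM in controls and 49.8 ± 3.16 FPKM after treatment (SD, n = 3 each). In GENCODE 29, 30.8% of the exon length of DDX39B is shared with other genes, chiefly the read-through gene ATP6V1G2-DDX39B, while DDX39A shares none.

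DDX19A and DDX19B act at the cytoplasmic side of the nuclear pore. DDX19A was at 2.98, 3.23 and 2.74 FPKM in controls and 3.14, 3.17 and 3.48 FPKM after treatment, and DDX19B at 5.65, 6.10 and 5.14 against 5.56, 6.83 and 6.64 FPKM. Both overlapped and did not pass (log2 fold changes 0.091 and 0.13, SE 0.087 and 0.094). Their ratio was 0.530 ± 0.00285 in controls and 0.518 ± 0.0506 after treatment (SD, n = 3 each). These genes are near copies, so the division of reads between them is uncertain. DDX19A and DDX19B share 26.9% and 19.7% of their exon length with other annotated genes. The part of that overlap in their counts was not tested.

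**Figure D3:**
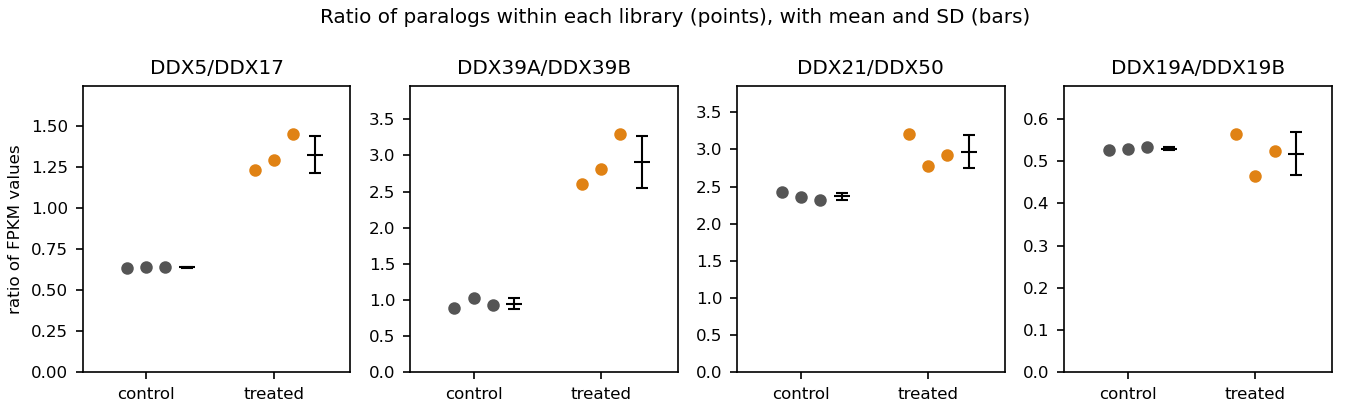
Ratio of FPKM values of paralogous helicases within each library (points), with the mean and SD of each group (bars). The ratios of DDX5 to DDX17 and of DDX39A to DDX39B rise from 0.640 to 1.32 and from 0.949 to 2.90, while that of DDX19A to DDX19B is 0.530 in controls and 0.518 after treatment.

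DDX5 (p68) and DDX17 (p72) are paralogs that bind transcription factors, the microRNA processor Drosha and splice sites. DDX5 lies on chromosome 17 (64499616 to 64508199) and DDX17 on chromosome 22 (38483440 to 38507660). They were the most abundant members beside DDX21, and they moved in opposite directions. DDX17 had the highest control level of the 53 DDX and DHX genes at 78.43, 76.96 and 75.63 FPKM, and had the largest fall of the family, to 50.81, 47.54 and 46.83 FPKM (0.612 of control, log2 fold change -0.71, SE 0.055, edgeR adjusted p = 1.33e-07). DDX5 was at 49.95, 49.40 and 48.49 FPKM in controls and at 62.30, 61.34 and 68.12 FPKM after treatment (1.26-fold, SE 0.059 on the log2 scale, adjusted p = 0.000251, edgeR). Their order by level was thus exchanged: DDX5 over DDX17 was 0.637, 0.642 and 0.641 in controls and 1.23, 1.29 and 1.45 after treatment. The sum of both was 126 ± 2.13 FPKM in controls and 112 ± 3.11 FPKM after treatment (SD, n = 3 each). The length behind the deposited FPKM of DDX5 was 1.26 times its summed exon length in GENCODE 29, so its level relative to DDX17 depends on the annotation. The effect of another annotation on the change of the ratio was not tested. DHX9, a helicase of long duplexes in the same role, rose by 0.14 on the log2 scale from a control mean of 33.6 ± 0.809 to 38.0 ± 1.20 FPKM (SD, n = 3 each; edgeR adjusted p = 0.0403). That call was lost without any 1 control library (adjusted p = 0.0881 to 0.147) or without treated library 1 (0.0527).

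The nucleolar paralogs DDX21 (chromosome 10, 68956128 to 68985073) and DDX50 (68901278 to 68946847) are neighbours in the genome, and both were higher. DDX50 was at 20.44, 19.50 and 20.11 FPKM in controls and 22.22, 23.51 and 23.65 FPKM after treatment. The ratio of DDX21 to DDX50 was 2.42, 2.36 and 2.32 in controls and 3.21, 2.77 and 2.92 after treatment, without overlap. The call of DDX50 (edgeR adjusted p = 0.0279) was lost with DESeq2 (0.0605) and without control library 2 (0.126), control library 3 (0.0879) or treated library 2 (0.0639).

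**Figure D4:**
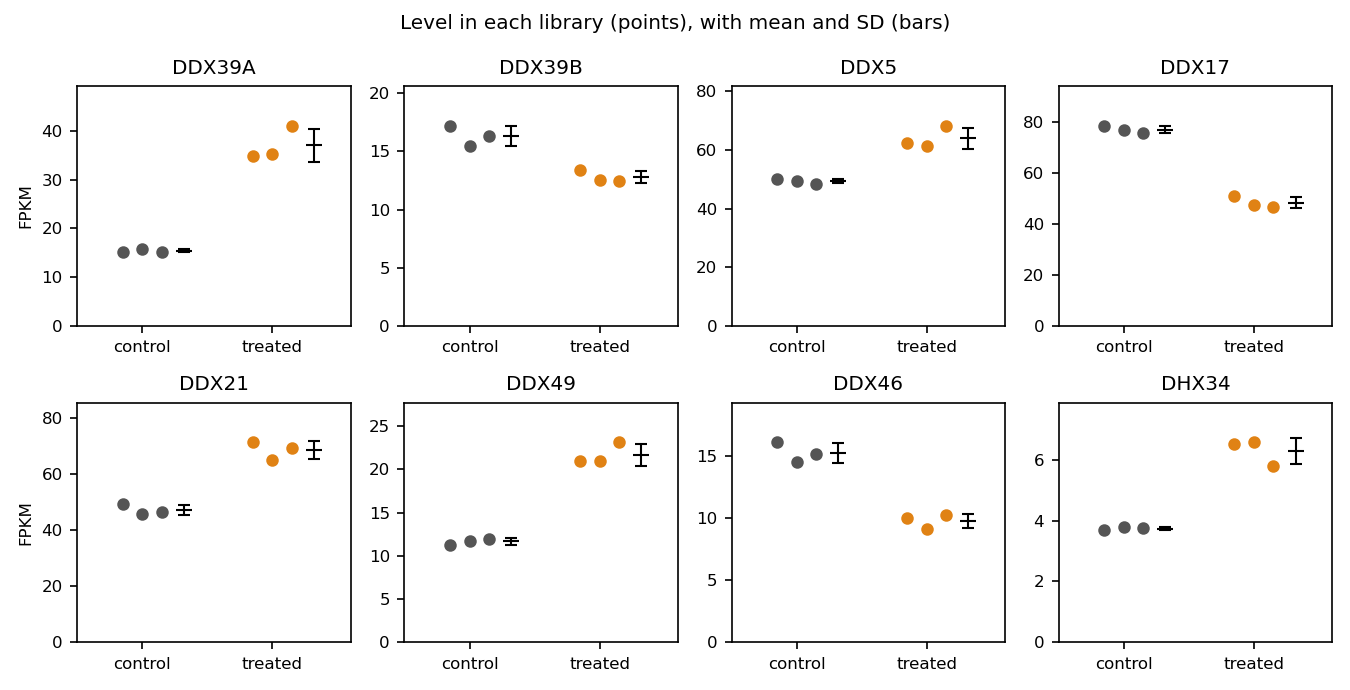
FPKM (y axis, from 0) of 8 helicase genes in each of the 3 control and 3 treated libraries (points), with the mean and SD (bars). In all 8 panels the groups are separate, with DDX39B, DDX17 and DDX46 lower after treatment and the other genes higher.

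Among helicases of mRNA decay and silencing, 2 rose and 1 fell. Over all tested genes, 25.3% were higher and 25.3% lower. DHX34, which promotes nonsense-mediated decay, rose from 3.69, 3.78 and 3.74 FPKM to 6.50, 6.56 and 5.80 FPKM (1.64-fold, SE 0.076 on the log2 scale, edgeR adjusted p = 2.82e-06). DHX36, which resolves G-quadruplexes, rose 1.18-fold, from a mean of 6.85 ± 0.151 to 8.27 ± 0.241 FPKM (SD, n = 3 each). DDX6, the decapping activator of P-bodies, was the most abundant of the role and fell from 15.54, 15.57 and 15.33 FPKM to 13.43, 11.65 and 13.76 FPKM (log2 fold change -0.29, adjusted p = 0.00171, edgeR). All treated values of DDX6 lay below the controls.

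Helicases of small RNA particles and of mitochondria were higher, 2 of 2 in each role, where 25.3% of all tested genes were higher. With 2 genes per role, these counts describe the genes and not the role. DDX20 (Gemin3), a subunit of the SMN complex that builds spliceosomal particles, went from 2.18, 2.26 and 2.18 FPKM to 3.56, 3.30 and 3.15 FPKM, 1.47-fold higher. DDX1, part of the tRNA ligase complex, went from 9.45, 9.26 and 9.33 FPKM to 11.01, 11.05 and 12.42 FPKM, 1.20-fold higher. The length behind the FPKM was 2.64 times the GENCODE 29 exon length for DDX1 and 1.46 times for DDX20. The levels of both therefore depend on the annotation used. DDX28, which acts in assembly of the mitochondrial ribosome, was at 4.10, 5.18 and 5.25 FPKM in controls and 7.82, 6.81 and 7.44 FPKM after treatment, 1.48-fold higher, and shares 22.5% of its exon length with DUS2 on the other strand. DHX30, found in mitochondrial RNA granules, was at 10.54, 10.70 and 11.47 FPKM against 14.00, 13.43 and 12.90 FPKM, 1.20-fold higher. In each of these 4 genes all treated values lay above all controls, as in 33.5% of all tested genes.

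For the 2 translation helicases the absolute log2 fold change had a median of 0.13, the smallest of the roles with tested members. DDX3X, which helps ribosomes start on structured mRNAs, was at 32.22, 31.62 and 31.27 FPKM in controls and 30.37, 28.79 and 33.30 FPKM after treatment. Its groups overlapped and it did not pass (log2 fold change -0.078, SE 0.063, edgeR adjusted p = 0.322). Without treated library 3 it was lower and passed (-0.14, adjusted p = 0.0202). DHX29, which aids scanning by the small subunit, was at 7.09, 6.69 and 7.87 FPKM in controls and 8.28, 8.36 and 8.51 FPKM after treatment, with a log2 fold change of 0.18 (SE 0.073) at the edge of the threshold (adjusted p = 0.0498, edgeR). Of 14 alternative analyses 6 kept that call, and the adjusted p ranged from 0.0212 to 0.247 over them.

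The RNA sensing helicases had few counts in either group. DDX58 (RIG-I), which detects RNA with a 5′ triphosphate, had 16, 18 and 14 counts in the controls and 15, 18 and 10 in the treated libraries, at most 0.11 FPKM. DDX60 had 26, 22 and 14 counts against 17, 24 and 27. DHX58 (LGP2) had 2, 0 and 1 counts in the controls and 0 in all treated libraries, where 0 counts allow up to 0.148 to 0.187 CPM for counting error alone. None of the 3 reached the expression minimum, and the counts of DDX58 and DDX60 overlapped between groups. In the fit without the expression minimum neither passed, with wide errors: the log2 fold change was -0.17 for DDX58 (SE 0.36, edgeR adjusted p = 0.792) and 0.11 for DDX60 (SE 0.31, adjusted p = 0.827). The related sensor IFIH1 (MDA5), whose symbol lies outside the family's pattern, averaged 1.16 FPKM and did not pass (log2 fold change -0.25, SE 0.15, edgeR adjusted p = 0.173).

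Of 4 germ line helicases only DDX43 was expressed. DDX43 (HAGE), a cancer/testis antigen, rose from 3.41, 3.50 and 4.05 FPKM to 6.31, 5.38 and 5.84 FPKM (1.56-fold, SE 0.11 on the log2 scale, edgeR adjusted p = 0.000152), and 20.2% of its exon length is shared with OOEP and CGAS on the other strand. DDX4 (VASA) had 1 count over the control and 1 over the treated libraries, DDX25 had 0 and 2, and DDX53 had 0 counts in all 6. DDX11, a DNA helicase of sister chromatid cohesion that carries the DDX name, was at 4.20, 4.11 and 4.61 FPKM in controls and 3.85, 3.95 and 3.67 FPKM after treatment (log2 fold change -0.21, adjusted p = 0.0260, edgeR). It has near-identical copies in the genome, which makes its counts uncertain, and 6 of 13 alternatives kept the call, with an adjusted p between 0.0262 and 0.131.

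The remaining 4 members were assigned no role. DHX40 fell from 21.96, 20.57 and 21.00 FPKM to 15.77, 15.75 and 16.72 FPKM (0.740 of control, SE 0.058 on the log2 scale, edgeR adjusted p = 2.14e-05). DHX57 fell from 3.79, 3.12 and 3.83 FPKM to 2.70, 2.77 and 2.61 FPKM, 0.733 of control. DHX32 rose 1.30-fold, from a mean of 5.81 ± 0.376 to 7.74 ± 0.826 FPKM (SD, n = 3 each). DDX59 was at 2.66 ± 0.135 FPKM in controls and 2.73 ± 0.0764 FPKM after treatment and did not pass.

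Helicases of the same superfamily also occur under other symbols. Of 24 listed 19 were tested, of which 2 were higher and 9 lower, with a median log2 fold change of -0.14. Thus 57.9% passed (10.5% higher, 47.4% lower), against 50.6% of all tested genes (25.3% higher, 25.3% lower). The largest changes among those that passed were in HELZ2, a nuclear receptor coactivator (-0.63, SE 0.080), EIF4A1 (0.59, SE 0.17) and AQR, the intron-binding helicase of the spliceosome (-0.43, SE 0.063). EIF4A2, which unwinds mRNA for the ribosome, averaged 167 FPKM and changed by -0.14 (SE 0.055, edgeR adjusted p = 0.0482). EIF4A3, the helicase of the exon junction complex, did not pass (0.087, SE 0.059). The EIF4A2 call was lost in 10 of the 14 alternatives. EIF4A1 was at 1.65, 1.62 and 1.46 FPKM in controls and 2.52, 3.19 and 1.73 FPKM after treatment, and did not pass without treated library 2 (0.38, adjusted p = 0.0565, edgeR) or in limma. It averaged only 2.03 FPKM, and 48.6% of its exon length is shared with other genes on the same strand, chiefly the read-through gene SENP3-EIF4A1. The part of that overlap in its count was not tested.

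Partner genes moved in both directions, as did all tested genes, of which 25.3% were higher and 25.3% lower. The share that passed was 52.6% of tested G-patch genes, 66.7% of RIG-I pathway genes and 60.0% of eIF4A, export and decay partners. Over all tested genes it was 50.6%. Among G-patch proteins, which activate DHX helicases, 19 of 21 listed rows were tested, with 7 higher and 3 lower and a median of 0.10. The largest changes were in PINX1 (0.95, SE 0.14), GPATCH3 (0.53, SE 0.087) and SUGP1 (0.48, SE 0.065). Of 18 listed genes of the RIG-I pathway 12 were tested, of which 3 were higher and 5 lower with a median of 0.019. The largest changes were in IFIT1 (-1.23, SE 0.16), RNF125 (-0.68, SE 0.14) and the antiviral zinc finger protein ZC3HAV1 (-0.46, SE 0.062). IFIT1 and RNF125 averaged 1.02 and 1.06 FPKM, just above the minimum. Interferon genes IFNB1 and IFNL1 were listed with a mean of 0 FPKM. Of 20 tested partners of eIF4A, export and decay helicases 6 were higher and 6 lower, with a median of -0.014. CNOT1, the scaffold of the deadenylase that recruits DDX6, fell by 0.70 on the log2 scale (SE 0.092), PDCD4, an inhibitor of eIF4A, fell by 0.56 (SE 0.055), and MAGOH, an exon junction subunit, rose by 0.45 (SE 0.089).

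RefSeq promoter windows (GRCh38.p14) were on hand for 48 of the 53 members. Those of DHX33, DDX18, DDX49, DHX58 and DDX52 were not used here. The 250 bases before each start were searched on both strands for 3 motifs: the E-box CACGTG, bound by MYC and its relatives, the cAMP response element TGACGTCA and the ETS motif CCGGAAG. The ETS motif was present before 18 of 42 tested members (42.9%), against 20.3% of 8979 tested genes with a window. By direction, 5 of 8 members that fell and 8 of 24 that rose had it. The E-box stood before 8 of 42 tested members (19.0%, against 11.4%), among them DDX21, DDX31 and DDX54 of ribosome assembly. The cAMP element stood before 5 of 42 (11.9%, against 3.66%), which were DDX10, DDX51, DDX28, DHX36 and DDX19A. Stretches from a pair of the strongest falls and 1 rise, all outside annotated exons, show the letters found, with the motif in capitals.
DDX46, ETS motif on the reverse strand, chr5:134758712-134758758, plus strand: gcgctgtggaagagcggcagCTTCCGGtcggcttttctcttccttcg
DHX40, E-box, chr17:59565440-59565485, plus strand: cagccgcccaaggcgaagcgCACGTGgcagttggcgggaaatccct
DHX36, cAMP response element, chr3:154324544-154324591, minus strand: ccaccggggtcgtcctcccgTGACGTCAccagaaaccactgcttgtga
The motif of DDX46 starts 47 bases before the transcript start, that of DHX40 150 bases and that of DHX36 84 bases. A match describes letters in the window and was not tested as a binding site.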

How the data were processed

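Per the file headers, the deposited table holds counts and FPKM by gene for 3 control and 3 treated libraries. The submitters' processing notes name GRCh38 and the tools HTSeq 0.6.1, HISAT2 2.0.1 and cutadapt 1.9.1. No source used here gives the annotation release, the strand setting or the handling of shared reads. The gene length implied by the authors' FPKM differed by at most 2% from the GENCODE 29 exon total for 36 of 47 members. The ratio of these lengths was furthest from 1 in DDX1 (2.64), DDX20 (1.46), DDX5 (1.26) and DDX49 (1.19). Members, roles and the 4 partner lists were chosen with earlier results of these data known, and no test was run over a list.

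Counts were tested over all 12829 genes with a mean FPKM of at least 1 with edgeR 4.0.16 (R 4.3.3, quasi-likelihood, TMM, no covariate, Benjamini-Hochberg, threshold 0.05, 2-sided). Standard errors were derived from the F statistic. The script was tested on simulated data. Alternatives used DESeq2 1.42.0, limma 3.58.1 on log2(FPKM + 1 or 0.1), other scalings, expression minimums of 0 and 5 FPKM, a replicate block, and each library left out. Values in every library are printed for the 4 largest rises and falls, for the most changed and most abundant member of each role, and for paralogs and sensors. From each partner list the 3 largest changes that passed are named, beside EIF4A1, EIF4A2 and EIF4A3. Other genes named were chosen after their values were seen. With 3 counts in a library corresponding to 0.148 to 0.198 CPM, depth limited only the lowest members.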

Additional observations from a re-analysis of the deposited data

How the results depend on the processing

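Of the 36 helicase genes that passed, 30 (24 higher, 6 lower) passed in the same direction in every one of the 14 alternatives that included them. DHX9, DDX54, DDX50, DHX38, DHX29 and DDX11 lost the call in at least 1, and DDX54 did so without control library 1 (adjusted p = 0.0639) or 3 (0.0717). The number of members higher was 23 to 29 and lower 6 to 8 over the alternatives, and 25 to 27 and 7 to 8 without single libraries. The replicate number as a block gave 28 higher and 8 lower. The labels do not say that equal numbers mark a shared culture, so the numbers were not treated as pairs in the main fit. Same-numbered libraries did not deviate together (r = -0.003, 0.016 and 0.002).

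Without single libraries the median of ribosome assembly genes ranged from 0.34 to 0.45 and that of splicing genes from -0.046 to 0.062. The helicases with other symbols had 1 higher with DESeq2 and in limma with either pseudocount, 0 at a mean FPKM of at least 5, and 1 to 2 without single libraries. The G-patch genes had 0 lower in limma with either pseudocount, 1 without TMM factors, 1 without an expression minimum and 1 to 3 without single libraries. The RIG-I genes had 1 higher and 3 lower at a mean FPKM of at least 5, 5 higher without TMM factors, and 2 to 5 lower without single libraries. Only 6 of them reached 5 FPKM, and without 1 control library 10 or 11 were tested. The eIF4A, export and decay partners had 3 lower in limma with either pseudocount. The cause of these shifts was not tested.

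Members whose log2 fold change crossed 0 were all near it and did not pass. DDX23 was at 0.017 and 0.016 in limma with pseudocounts of 0.1 and 1, at 0.018 without TMM factors, at 0.0016 without an expression minimum and from -0.049 to 0.022 without single libraries. DDX56 ranged from -0.00075 to 0.15 and DHX8 from -0.046 to 0.068 without single libraries. DDX59 was at -0.00081 with DESeq2, -0.00045 with median-of-ratios scaling, -0.0014 with the replicate block, and from -0.036 to 0.036 without single libraries.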
